A study of Mus musculus with 2 samples.

Results

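The genes described here are the 44 collagen genes among the 32285 genes counted, chosen by symbol alone: Col, a number, the letter a and a number, one gene for each chain. They were measured by single-cell RNA sequencing (10x Chromium, 3′ end, with unique molecular identifiers, UMIs) in Lin-CD45- cells from digested femurs and tibiae and their marrow. The cells came from 3 untreated male INK-ATTAC mice of 24 months, pooled into 1 sample and run on 2 lanes. INK-ATTAC mice carry a transgene in which a fragment of the p16 promoter drives a FLAG-tagged, inducible caspase; no animal without the transgene, and no other age or treatment, was in this sample. The bone was digested with collagenase and the marrow with a Liberase enzyme blend, and the Lin antibodies included Ter-119, a marker of erythroid cells.

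The lanes held the same cells. Of 11056 barcodes found in either lane, 10928 were in both, and the log10 UMI totals of shared barcodes correlated at r = 0.999858, a description over barcodes of the same libraries. UMIs were therefore summed per barcode, and the lanes are technical repeats of 1 pool. Squared lane differences over summed counts came to 0.559, below the 1 of independent counts, so a molecule can be counted in both lanes. With n = 1 pool there is no replicate error between animals and no test: every interval below is a 95% interval for counting error only, computed on the mean of the lanes. Requiring at least 200 genes and at most 20% mitochondrial UMIs per barcode left 9573 cells, with a median of 9857 UMIs over both lanes.

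The collagen genes were compared across 4 groups of these cells. LEPR stromal cells (1877 cells, 19.6%) had at least 1 UMI of Lepr, the leptin receptor of marrow stroma, and at least 5000 CPM of Cxcl12, where CPM is UMIs per 1000000 UMIs. Fibroblast cells (137 cells, 1.43%) were the cluster with 15 of 15 Sca-1/PDGFRa+ fibroblast markers, endothelial cells (61 cells, 0.637%) the cluster with 13 of 14 endothelial markers, and erythroid cells (6408 cells, 66.9%) made up 9 clusters. A marker counted if found in 10% of a cluster's cells at 25% or more of its level in the highest cluster. Median UMIs per cell over both lanes were 5188, 8439, 3136 and 28824.5 in these groups. The collagen genes were left out of the clustering that named the fibroblast and erythroid cells. The endothelial cells came from a clustering of log-normalized counts with the collagen genes also left out, because the main clustering gave no endothelial cluster. Clusters were named from lists of markers, so high levels of these genes describe the groups and do not check their names. Pecam1 and Cdh5, adhesion proteins of endothelial junctions, were at 1137 and 1003 CPM in endothelial cells and at no more than 1.91 CPM in the other groups. Adipoq, of marrow stromal cells and not used by the gate, was at 1149 CPM in LEPR stromal cells and 1.2 CPM in erythroid cells. The globin gene Hbb-bs was at 10962 CPM in erythroid cells, and at 2260, 1321 and 860 CPM in fibroblast, endothelial and LEPR stromal cells. Of the fibroblast markers, Ly6a (Sca-1) and Cd34 were at 414 and 255 CPM in fibroblast cells but 1353 and 442 CPM in endothelial cells. Pdgfra was at 243 CPM against 380 CPM in LEPR stromal cells, and Fbln1 at 132 CPM in both. The others were highest in fibroblast cells, among them Dcn at 10528 CPM. The sort label, mesenchymal cells, thus did not cover most of the cells, which had erythroid transcripts.

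Collagens are secreted proteins in which 3 chains wind into a triple helix. Fibrillar collagens such as types I, III and V form the fibres that give bone and connective tissue their tensile strength, and type V chains sit inside type I fibres and limit their width. FACIT collagens bind to the surface of fibres, and basement membrane collagens, mainly type IV, form the sheet beneath endothelium and around many cells. In marrow, LEPR stromal cells surround blood vessels and support blood stem cells, fibroblasts and osteoblasts lay down type I collagen, and blood cells are not a usual source of fibrillar collagen. By class, the 44 genes comprised 11 fibrillar, 9 FACIT, 8 basement membrane (Col4a1 to Col4a6, Col15a1 and Col18a1) and 16 other members.

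Promoter sequences are shown for Col4a1 and Col4a2, head-to-head neighbours whose UMI ratio had overlapping intervals in LEPR stromal, fibroblast and endothelial cells, and for Col5a1, whose erythroid level was far from that of its partner chain. In the GENCODE M21 annotation of GRCm38, Col4a1 (minus strand) spans chromosome 8, bases 11198423 to 11312826, and Col4a2 (plus strand) bases 11312805 to 11449287 of the same chromosome, head to head and sharing 22 bases. Col5a1 (plus strand) spans bases 27886425 to 28039514 of chromosome 2. Each sequence is from RefSeq (build GRCm38.p6) and runs 5′ to 3′ along the gene, from 250 bases before the start to 50 after it, which puts Col4a1 at chr8:11312777-11313076 (minus strand), Col4a2 at chr8:11312555-11312854 (plus strand) and Col5a1 at chr2:27886175-27886474 (plus strand). Capitals mark CCAAT or its reverse complement ATTGG.
Col4a1: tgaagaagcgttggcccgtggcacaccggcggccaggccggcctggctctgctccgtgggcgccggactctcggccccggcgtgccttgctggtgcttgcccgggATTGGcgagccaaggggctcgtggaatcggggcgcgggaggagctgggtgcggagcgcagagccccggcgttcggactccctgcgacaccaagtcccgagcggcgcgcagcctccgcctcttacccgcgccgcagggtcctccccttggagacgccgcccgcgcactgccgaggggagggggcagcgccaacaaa
Col4a2: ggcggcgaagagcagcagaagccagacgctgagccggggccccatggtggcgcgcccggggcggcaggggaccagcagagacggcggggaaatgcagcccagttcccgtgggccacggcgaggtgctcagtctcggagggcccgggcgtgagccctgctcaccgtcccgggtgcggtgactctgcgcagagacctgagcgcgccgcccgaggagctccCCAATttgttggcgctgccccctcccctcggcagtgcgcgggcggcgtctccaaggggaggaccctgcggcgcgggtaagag
Col5a1: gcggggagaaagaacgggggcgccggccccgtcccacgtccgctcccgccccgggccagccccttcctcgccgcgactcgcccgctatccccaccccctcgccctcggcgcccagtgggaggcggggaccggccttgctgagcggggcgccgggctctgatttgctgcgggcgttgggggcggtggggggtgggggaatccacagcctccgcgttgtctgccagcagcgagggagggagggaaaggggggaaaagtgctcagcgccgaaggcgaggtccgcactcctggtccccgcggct
Both type IV promoters held 1 match to CCAAT, which 37.4% of 32851 RefSeq promoters of this length hold on either strand. The Col5a1 window, with 75% G and C, held no match to CCAAT, to TATAAA (13.6% of promoters), to AGATAA (11.2%) or to CCACACCC (3.56%), searched on both strands; none of the last 3 matched in the type IV windows either, so no matches overlap. A match or its absence describes these letters only. Among the collagen genes, 35 of 44 had a promoter in the table.

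Collagen genes took up very different shares of the RNA in the 4 groups. Summed over all 44 genes, the level was 11926 CPM (11685 to 12170) in fibroblast cells, 3932 CPM (3879 to 3985) in LEPR stromal cells, 1837 CPM (1591 to 2110) in endothelial cells and 78.7 CPM (77 to 80.4) in erythroid cells. That is 1.19% of all UMIs in fibroblast cells and 0.393% in LEPR stromal cells. One fibroblast cell held 20.4% of the fibroblast collagen UMIs, and without it the fibroblast sum was 9587 CPM (9370 to 9807). At least 1 collagen UMI was found in 99.4% of LEPR stromal, 99.3% of fibroblast, 90.2% of endothelial and 57% of erythroid cells. The intervals of the 4 sums do not overlap, and the lanes lay close together: 3922 and 3941 CPM in LEPR stromal cells, 11922 and 11929 in fibroblast cells, 1920 and 1756 in endothelial cells, and 78.9 and 78.4 in erythroid cells. Both lanes read the same libraries, so this closeness is not replication.

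The classes were divided differently in each group. Fibrillar collagens made up 81.4% of the collagen UMIs of fibroblast cells (9702 CPM) and 53.5% of those of LEPR stromal cells (2104 CPM). Basement membrane collagens made up 87.7% in endothelial cells (1611 CPM, 1381 to 1868), 18.3% in LEPR stromal cells (719 CPM) and 3.76% in fibroblast cells (448 CPM). FACIT collagens stood at 557 CPM in fibroblast cells and 156 CPM in LEPR stromal cells, and no FACIT UMI was found in endothelial cells, which allows up to 27.6 CPM at 3 counts. In erythroid cells, 95% of the collagen UMIs were fibrillar (74.8 CPM), and nearly all of these belonged to Col5a1.

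**Figure D1:**
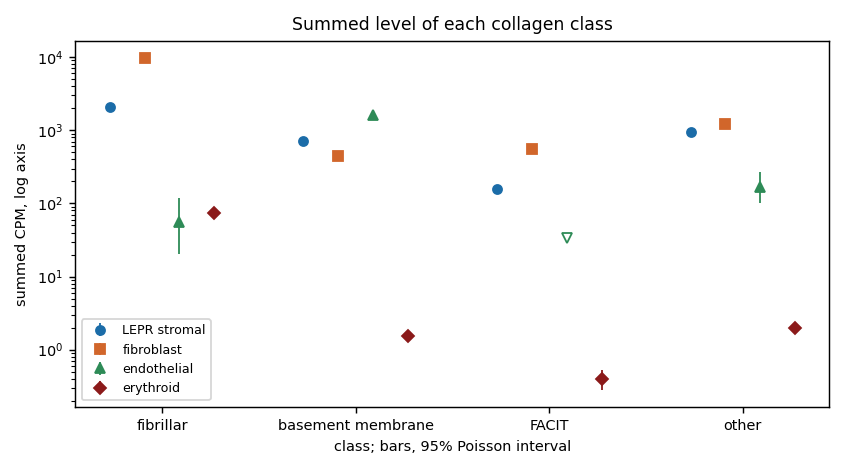
Summed CPM (log axis) of the fibrillar, basement membrane, FACIT and other collagen genes in LEPR stromal, fibroblast, endothelial and erythroid cells, with 95% Poisson intervals; an open triangle is the upper limit where no UMI was found. Endothelial cells are highest for basement membrane collagens (1611 CPM) and fibroblast cells for fibrillar collagens (9702 CPM).

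Of the 44 genes, 43 had a UMI in a kept cell; Col19a1 had none and Col9a1 had 2 UMIs over both lanes. The number at 50 CPM or more was 18 in fibroblast, 14 in LEPR stromal, 5 in endothelial and 1 in erythroid cells. A gene's highest level was in fibroblast cells for 30 genes, in LEPR stromal cells for 9, in endothelial cells for 4 and in erythroid cells for none. For 8 of these genes the highest level rests on 5 UMIs or fewer over both lanes, 7 of them in fibroblast cells and 1, Col28a1, in endothelial cells (1 UMI). Of the 31 genes with at least 20 UMIs over the 4 groups, as the mean of the lanes, 21 were highest in fibroblast, 7 in LEPR stromal and 3 in endothelial cells. The same count was not made over all genes, so whether this division is particular to collagen genes was not tested. Altogether 21 genes reached 50 CPM in a non-erythroid group and are given below; the other 23 stayed under it in all 3. Levels are of 3′ counts, which do not scale with transcript length.

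Type I collagen, the main fibre of bone, was the most abundant type in fibroblast cells. Col1a1, its α1 chain, was at 3653 CPM (3520 to 3789) in fibroblast cells and 234 CPM (221 to 247) in LEPR stromal cells, against 0.551 CPM in erythroid cells and 1 UMI, 4.6 CPM, in endothelial cells. Col1a2, the α2 chain, was at 3179 CPM in fibroblast, 1128 CPM in LEPR stromal, 9.21 CPM in endothelial and 1.37 CPM in erythroid cells. In mature type I collagen, α1 chains outnumber α2 chains. The ratio of Col1a1 to Col1a2 UMIs was 1.15 (1.09 to 1.21) in fibroblast cells and 0.207 (0.195 to 0.22) in LEPR stromal cells, so the LEPR stromal cells had several Col1a2 UMIs for each Col1a1 UMI. The fibroblast value leans on few cells: 1 of the 137 held 35.5% of the Col1a1 UMIs, 3 held 50%, and 34 cells marked as osteoblasts, described below, held 63.1%. Without the highest cell, Col1a1 and Col1a2 were at 2379 and 2257 CPM in fibroblast cells. The ratio was 1.29 (1.2 to 1.38) in those 34, 0.971 (0.891 to 1.06) without them and 0.748 (0.659 to 0.848) in the 74 fibroblast cells with no mark of another lineage. Col1a2 was the broader gene in LEPR stromal cells: 92.1% of them had a Col1a2 UMI and 45.4% a Col1a1 UMI, and 85.9% and 29.8% when 1295 of the cells were thinned to 2000 UMIs each.

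Among the other fibrillar genes, Col3a1, which forms thin fibres in soft tissue, was at 1635 CPM in fibroblast, 183 CPM in LEPR stromal, 4.6 CPM in endothelial and 0.307 CPM in erythroid cells. Col5a2 was at 508 CPM in fibroblast, 170 CPM in LEPR stromal, 23 CPM in endothelial and 0.216 CPM in erythroid cells. Col5a3 was at 108 CPM in fibroblast and 119 CPM in LEPR stromal cells, with overlapping intervals, at 0.196 CPM in erythroid cells and not found in endothelial cells. Col27a1 was higher in LEPR stromal cells (94.7 CPM, 86.7 to 103) than in fibroblast cells (37 CPM, 24.8 to 53.1), the reverse of most fibrillar genes, and was at 4.6 CPM in endothelial and 0.182 CPM in erythroid cells. The cartilage collagens Col2a1, Col11a1 and Col11a2 were at 194, 122 and 59.3 CPM in fibroblast cells, at 4.84, 9.95 and 1.58 CPM in LEPR stromal cells, at 0.0287, 0.0144 and 0.517 CPM in erythroid cells and not found in endothelial cells. Their fibroblast levels were 135, 79.8 and 26.4 CPM without the highest cell, which held 55.9% of the Col11a2 UMIs, and 1.27, 10.1 and 2.53 CPM in the unmarked fibroblast cells. Col24a1 had 11 UMIs in all cells over both lanes.

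Basement membrane collagens were the main collagens of endothelial cells. Col4a1 was at 847 CPM (683 to 1039) in endothelial cells, 458 CPM (441 to 477) in LEPR stromal cells, 228 CPM (195 to 263) in fibroblast cells and 0.513 CPM in erythroid cells. Col4a2 was at 562, 237, 103 and 0.292 CPM in the same groups. Both genes were at 8.98 CPM in the osteoblast-marked fibroblast cells described below, which lowers the fibroblast values. In the unmarked fibroblast cells Col4a1 was at 389 CPM and Col4a2 at 153 CPM. Neither was past 2-fold from the LEPR stromal level there (log2 -0.24 and -0.63). Col18a1, the source of endostatin, was at 152 CPM (87.7 to 245) in endothelial cells, 22 CPM in LEPR stromal, 19.8 CPM in fibroblast and 0.225 CPM in erythroid cells. Col15a1, which lies close to basement membranes, was at 81.6 CPM in fibroblast and 50.6 CPM (17.6 to 114) in endothelial cells, whose intervals overlap, and at 2.05 CPM in LEPR stromal and 0.0335 CPM in erythroid cells. The ratio of Col4a1 to Col4a2 UMIs, chains that assemble in one molecule, was 1.94 in LEPR stromal, 2.2 in fibroblast and 1.51 in endothelial cells, with intervals that overlap (1.81 to 2.08, 1.69 to 2.9 and 1.08 to 2.12). The erythroid ratio, 1.75 (1.1 to 2.83), comes from levels under 1 CPM of both genes. The chains Col4a3 to Col4a6, best known from kidney, had between 9 and 101 UMIs each in all cells over both lanes.

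Among FACIT collagens, Col12a1, found along tendon and bone fibres, was at 185 CPM in fibroblast, 87 CPM in LEPR stromal and 0.192 CPM in erythroid cells. Of its 291 fibroblast UMIs over both lanes, 139 lay in the 12 tenocyte-marked cells described below and 95 in the 34 osteoblast-marked cells. In the 74 unmarked fibroblast cells it was at 48.1 CPM, below the LEPR stromal level (log2 -0.85, -1.60 to -0.20). Col14a1 was at 310 CPM (273 to 352) in fibroblast cells and 0.93 CPM in LEPR stromal cells, and 93.5% of all its UMIs lay in the fibroblast cells. Col16a1 was at 66 CPM in LEPR stromal and 37.6 CPM in fibroblast cells. Col14a1 and Col16a1 were at 0.0144 and 0.0766 CPM in erythroid cells, and none of these 3 genes was found in endothelial cells.

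Of the other collagens, the microfibril-forming type VI was the most abundant in LEPR stromal and fibroblast cells. Col6a1 was level between LEPR stromal (390 CPM, 373 to 407) and fibroblast cells (414 CPM, 370 to 462), was at 4.6 CPM in endothelial cells and at 0.489 CPM in erythroid cells. Col6a2 was at 196 CPM in LEPR stromal, 285 CPM in fibroblast and 0.263 CPM in erythroid cells and was not found in endothelial cells. Col6a3 was at 331 CPM (292 to 374) in fibroblast cells and 46.2 CPM (40.7 to 52.4) in LEPR stromal cells, and at 13.8 and 0.0719 CPM in endothelial and erythroid cells. The ratio of Col6a1 to Col6a3 UMIs was thus 8.42 (7.38 to 9.65) in LEPR stromal cells and 1.25 (1.06 to 1.48) in fibroblast cells, while Col6a1 to Col6a2 was 1.99 and 1.45. Col8a1, a network-forming collagen of vessel walls and the cornea, was at 290 CPM in LEPR stromal cells, 147 CPM (84.2 to 239) in endothelial cells, 63.7 CPM in fibroblast cells and 0.254 CPM in erythroid cells. Col6a6 and Col13a1, at 36.3 and 32.5 CPM in fibroblast cells, had no UMI in LEPR stromal cells, where a count of 0 allows up to 0.558 CPM.

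**Figure D2:**
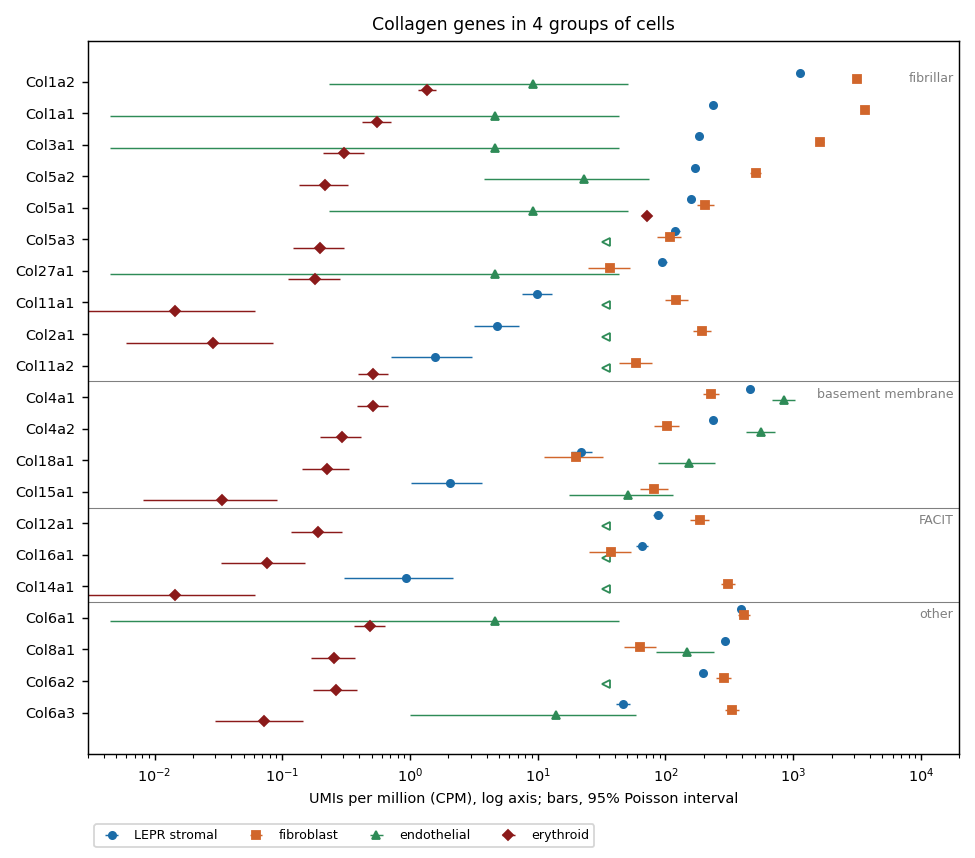
CPM (log axis) of the 21 collagen genes at 50 CPM or more in LEPR stromal, fibroblast or endothelial cells, in each group, with 95% Poisson intervals; open triangles are upper limits where no UMI was found. Erythroid cells lie at or below 1.37 CPM for every gene drawn except Col5a1, at 71.4 CPM.

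Changes between groups were called past 2-fold among genes with at least 20 UMIs, as the mean of the lanes, in both groups together. With 1 pool these calls carry no test. Fibroblast cells were called higher than LEPR stromal cells for 15 and lower for 5 of 28 collagen genes compared, where 9.53% and 21.3% of all 11760 genes were called higher and lower. The median log2 ratio was 1.29 for the collagen genes and -0.25 for all genes compared. The differences ranged from Col14a1 (log2 8.38, 7.14 to 10.02) down to Col8a1 (-2.19, -2.62 to -1.78) and Col26a1 (-3.03, -8.36 to -0.49); the last rests on 2 UMIs over both lanes in fibroblast cells. Col6a6 and Col13a1, at 0 UMIs in LEPR stromal cells, were 65.1-fold and 58.2-fold higher in fibroblast cells with LEPR stromal cells set to the floor of 3 counts. The lower limits of their log2 ratios were 5.63 and 5.46. Of the 51 fibroblast Col13a1 UMIs, 42 lay in osteoblast-marked cells, and without those cells it was at 8.01 CPM, too few UMIs to compare. Col2a1 was higher by a log2 ratio of 5.32 (4.72 to 5.98), but was found in 20 of the 137 fibroblast cells, and 3 of them held 50% of its UMIs. That ratio was 3.29 (2.45 to 4.12) without the osteoblast-marked cells, and in the 74 unmarked cells, with 1 UMI, it was below the LEPR stromal level (-1.93, -11.97 to 1.41). Without the osteoblast-marked cells 12 collagen genes were called higher and 3 lower of 26 compared, beside 9.01% and 21.7% of 11680 genes, and the collagen median was 0.71 against -0.24 for all genes. In the 74 unmarked cells 8 were called higher and 6 lower of 25, beside 9.21% and 22% of 11588 genes, and the medians were 0.44 and -0.22. Besides Col2a1, the lower calls of Col23a1 (-6.71 to 1.21) and Col26a1 (-7.37 to 0.50) rest on 2 UMIs each, with intervals that include 0. Of the summed collagen, the log2 ratio was 1.60 (1.57 to 1.64), 1.28 without those cells and 1.29 without the single cell with the most collagen.

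Endothelial cells were called higher than LEPR stromal cells for 2 collagen genes, Col4a2 and Col18a1, and lower for 12 of 21 compared, against 11.8% and 18.6% of 11488 genes. The endothelial cells held 106764 UMIs in lane 1 and the LEPR stromal cells 5283546. Genes thus pass the limit of 20 UMIs mostly through LEPR stromal counts. Col15a1, at 50.6 against 2.05 CPM (log2 4.63, 2.84 to 6.23), was left out as too few. At a limit of 5 UMIs, 3 were called higher and 12 lower, with no share over all genes computed. The median was -1.66 on the log2 scale, with genes at 0 set to the floor of 3 counts, against 0.08 for all genes. It is the value of Col12a1, which had no endothelial UMI, so the floor sets this median and it measures no level. Col2a1, Col6a4, Col11a1, Col23a1 and Col26a1, also without an endothelial UMI, took log2 ratios of 1.41 to 2.86 from the floor and were not called. Of the 12 genes called lower at 20 UMIs, 7 were fibrillar. Their endothelial counts were between 0 and 5 UMIs over both lanes, so those folds are loosely bounded: Col1a2 had a log2 ratio of -6.94 (-12.24 to -4.46).

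LEPR stromal cells were called higher than erythroid cells for 22 collagen genes and lower for 2 of 25 compared, against 46.9% and 18.5% of 13879 genes. The median log2 ratio was 9.02, against 0.85 for all genes. The 2 called lower, Col4a4 and Col17a1, had 2 and 1 UMIs over both lanes in LEPR stromal cells and intervals that include 0 (-6.50 to 1.39 and -11.12 to 2.30). Most ratios lay in a narrow band. The erythroid level of the genes at 50 CPM or more in LEPR stromal cells, apart from Col5a1, was between 0.876 (Col8a1) and 2.35 (Col1a1) per 1000 CPM in LEPR stromal cells. By the same measure, the 10 LEPR+ stromal markers at 50 CPM or more that the gate did not use stood between 0.732 (Kitl) and 1.06 (Hp and Foxc1), with Adipoq at 1.05. Cxcl12 (1.04) and Lepr (5.08) define the LEPR stromal gate, so their ratios are set in part by it. The part of free RNA in these low erythroid counts was not tested.

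Col5a1, the α1 chain of type V collagen, was outside that band. Its level in erythroid cells was 71.4 CPM (69.8 to 73), with 7364 and 7536 UMIs in the lanes, against 158 CPM (148 to 169) in LEPR stromal, 205 CPM (175 to 239) in fibroblast and 9.21 CPM (0.233 to 51.3) in endothelial cells. That is 452 erythroid CPM per 1000 LEPR stromal CPM. The erythroid cells held 85.4% of all Col5a1 UMIs and 1.59% of those of Col5a2, its partner in most type V molecules. The ratio of Col5a1 to Col5a2 UMIs was 331 (220 to 526) in erythroid cells, 0.928 (0.844 to 1.02) in LEPR stromal cells and 0.404 (0.334 to 0.486) in fibroblast cells. Col5a1 alone made up 90.7% of the erythroid collagen UMIs, and without it the erythroid sum was 7.31 CPM.

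**Figure D3:**
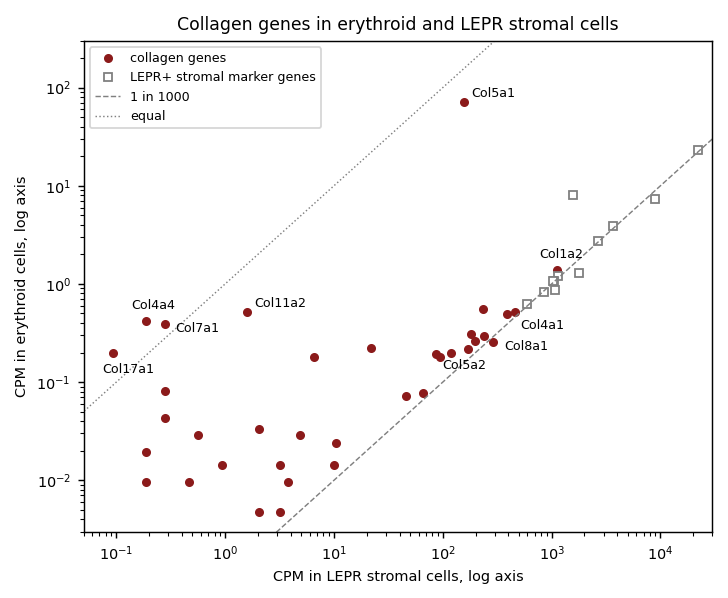
CPM in erythroid cells against CPM in LEPR stromal cells (log axes) for collagen genes with a UMI in both groups (filled) and for LEPR+ stromal marker genes (open squares, among them the gate genes Lepr and Cxcl12); the dashed line marks 1 in 1000 and the dotted line equal levels. Abundant stromal collagens lie along the dashed line, and Col5a1 lies far above it at 71.4 against 158 CPM.

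Col5a1 UMIs were spread across the erythroid cells. A UMI was found in 3264 erythroid cells, 50.9% (49.7 to 52.2, exact binomial), against 45% of the shallower LEPR stromal cells. With every cell thinned to 2000 UMIs, the share was 11.6% of 5917 erythroid cells and 27% of 1295 LEPR stromal cells; 491 and 582 shallower cells were left out. At the same depth, 0.304% of erythroid cells had a UMI of Col1a2 and 0.0845% one of Col5a2. The 64 erythroid cells with the most Col5a1 UMIs held 9.79% of them, and 651 cells were needed to hold 50% of them. Across the 9 erythroid clusters the level ran from 51.5 CPM in cluster 6 to 97.8 CPM in cluster 8, and that of Col5a2 stayed under 1 CPM in each of them. Megakaryocyte cells and plasma cells, the other blood cells in the sort, had 7.89 CPM (4.07 to 13.8) and 13.3 CPM (6.23 to 24.8). The unnamed clusters 3, 11, 12 and 13 lay between 39.3 and 112 CPM.

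**Figure D4:**
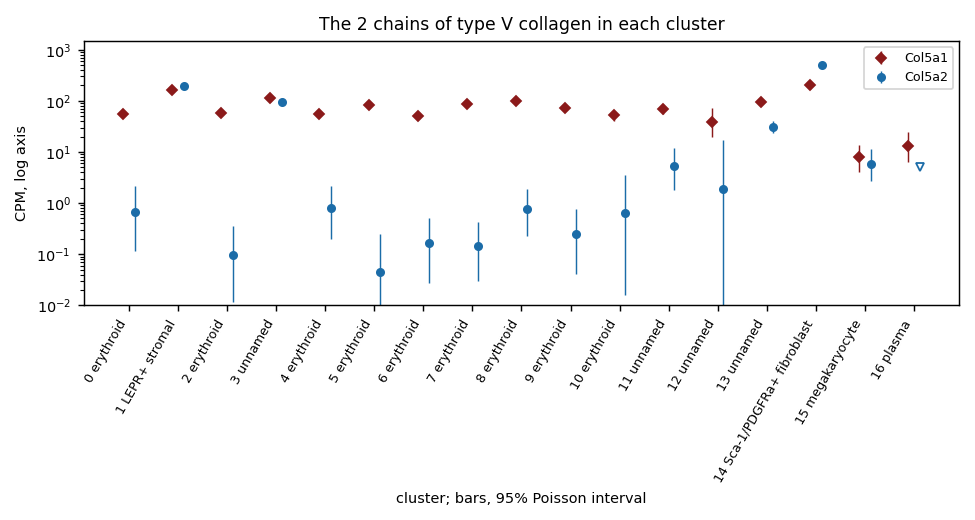
CPM (log axis) of Col5a1 and Col5a2 in each of the 17 clusters, with 95% Poisson intervals; the open triangle is an upper limit. In all 9 erythroid clusters Col5a1 lies between 51.5 and 97.8 CPM and Col5a2 under 1 CPM, whereas in clusters 1, 3 and 14 the pair lie within an order of magnitude.

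Genes around Col5a1 did not share its erythroid level. Olfm1 and Rxra, the neighbouring coding genes on the same strand within 200000 bases of it, were at 0.335 and 0.431 CPM in erythroid cells and 39.4 and 27.5 CPM in LEPR stromal cells, and Fcnb had no UMI in any group. The annotation places 2 transcripts over Col5a1 on the opposite strand. Of these, 2810430I11Rik, at the 5′ end, had 4 UMIs over both lanes in erythroid cells and 9 in LEPR stromal cells, and Gm13372, inside the gene, had 115 UMIs (0.551 CPM) in erythroid cells and 1 in LEPR stromal cells. Erythroid cells held 89.9% of the UMIs of all kept cells, and no collagen gene had a share above that: Col7a1 (88%), Col4a4 (86.1%), Col5a1 and Col17a1 (85.4% each) came nearest. Of these, Col7a1, Col4a4 and Col17a1 were under 1 CPM in erythroid cells, at 0.388, 0.417 and 0.196 CPM, with 3 UMIs or fewer each in LEPR stromal cells over both lanes.

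The enzymes and chaperones of collagen synthesis, a list of 33 genes, were mostly higher in LEPR stromal than in erythroid cells, as the collagen genes were. Against erythroid cells, 25 of 29 compared were called higher and 1 lower in LEPR stromal cells, with a median log2 ratio of 5.89, where 46.9% and 18.5% of all genes were called and their median was 0.85. The largest were P3h4 (log2 10.15), a partner of lysyl and prolyl hydroxylases, Serpinh1 (10.13), the collagen chaperone HSP47, and Sparc (10.08), a collagen-binding matrix protein. The 1 lower gene, P4ha3, had 1 UMI over both lanes in LEPR stromal cells. By level, the highest of the list in LEPR stromal cells were Sparc at 1158 CPM, Serpinh1 at 622 CPM, Ppib at 529 CPM, Lox at 362 CPM and P4hb at 340 CPM. Lox, lysyl oxidase, cross-links collagen fibres, and P4hb is a subunit of prolyl 4-hydroxylase. Ppib was at 403 CPM in erythroid cells and was not called.

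Against LEPR stromal cells, fibroblast cells were called higher for 4 and lower for 8 of 28 synthesis genes compared, with a median log2 ratio of -0.43. That is near the values for all genes (9.53% higher, 21.3% lower, median -0.25). Pcolce2, an enhancer of procollagen processing, was at 215 CPM in fibroblast cells and 0.186 CPM in LEPR stromal cells. Sparc was at 3680 CPM in fibroblast cells (log2 1.67, 1.60 to 1.73) and P4ha2, a prolyl hydroxylase, at 42.7 CPM (1.60, 0.97 to 2.21). Adamts14, which removes procollagen N-propeptides, was lower at 1.91 CPM against 22.7 CPM, P3h2 at 19.8 against 60.8 CPM and Loxl3 at 19.8 against 59 CPM. Lox was also lower, at 155 against 362 CPM. Endothelial cells were called lower for 21 and higher for 1 of 27, Plod1 (87.5 against 28.3 CPM), with a median of -2.19, where 11.8% of all genes were called higher and 18.6% lower and their median was 0.08. The lower calls of P4ha1, P3h1, P3h2, P3h4, Mia2 and Sec23a have intervals that reach above equal levels. Here too genes pass the UMI limit mostly through LEPR stromal counts. Lox had 2 endothelial UMIs over both lanes (log2 -5.30, -10.60 to -2.82), Pcolce 3 (-4.59, -8.39 to -2.49) and Loxl3 1 (-3.68, -13.67 to -0.45). Loxl1 and Adamts2, each at 275 CPM in LEPR stromal cells, had no endothelial UMI. At the floor of 3 counts they were 9.96-fold and 9.95-fold lower, with upper limits of log2 -3.02 and -3.01, so these 5 genes cannot be ranked.

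Collagen receptors were compared as a list of 10 genes. Against erythroid cells, 7 of 9 were called higher and 1 lower in LEPR stromal cells, beside 46.9% and 18.5% of all genes. The integrin chain Itga1 was at 380 CPM in LEPR stromal, 336 CPM in endothelial, 49.7 CPM in fibroblast and 0.35 CPM in erythroid cells. Itga2 was highest in endothelial cells (59.8 CPM, against 9.12 in LEPR stromal cells), Itga10 in fibroblast cells (40.8 against 1.49 CPM), and Itga11 was at 46.5 CPM in LEPR stromal and 37 CPM in fibroblast cells. Itgb1, the shared β chain, was at 659 CPM in LEPR stromal, 520 CPM in endothelial, 400 CPM in fibroblast and 183 CPM in erythroid cells. Of the receptor kinases, Ddr2 was at 164 and 154 CPM in LEPR stromal and fibroblast cells and Ddr1 at 59.5 and 13.4 CPM. Mrc2, an endocytic collagen receptor, was at 69.8 and 78.4 CPM. The leukocyte receptor Lair1 was at 1.56 CPM in erythroid cells and not found in the other groups, and the platelet receptor Gp6 was at 0.186 CPM in LEPR stromal and 0.0719 CPM in erythroid cells. Gp6 had no UMI in fibroblast and endothelial cells, where a count of 0 allows up to 3.82 and 27.6 CPM. Against LEPR stromal cells, 1 receptor was called higher and 2 lower of 8 in fibroblast cells, and 1 higher and 3 lower of 7 in endothelial cells. The shares of all genes were 9.53% and 21.3% in the former comparison and 11.8% and 18.6% in the latter, and at these counts the receptors cannot be set apart from them.

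The fibroblast cells were uneven in their collagens. The cells that held 50% of a gene's UMIs were 3 of 137 for Col1a1 (2.19%), 6 for Col1a2 (4.38%), 8 for Col3a1 (5.84%) and 16 for Col6a1 (11.7%). Col2a1 and Col11a2 were found in only 20 and 8 fibroblast cells. Cells were therefore marked by the other lineage whose marker list was best represented, at 3 or more genes, and none of these lists holds a collagen gene. Of the osteoblast list, Ibsp, Spp1 and Phex were also found in 1517, 1498 and 1027 of the 1877 LEPR stromal cells. Bglap, Bglap2 and Dmp1 were found in 2, 3 and 21 of them. An osteoblast mark can thus rest on genes shared with marrow stroma. By these marks 34 cells were osteoblast-marked, 12 tenocyte-marked, 10 chondrocyte-marked, 7 pericyte-marked and 74 unmarked, with summed collagen of 17911, 15429, 13097, 5273 and 8220 CPM. Single cells weigh on these sums: without the cell with the most collagen UMIs in each, they were 9672, 12337, 10193, 3711 and 7390 CPM, so their order is not settled. The groups are small and from 1 pool, and no test was made between them.

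Type I collagen was higher in osteoblast-marked than in unmarked cells. Col1a1 was at 8120 CPM and Col1a2 at 6310 CPM there, against 1103 and 1475 CPM in unmarked cells (log2 2.88 and 2.10). One osteoblast-marked cell held 56.3% and 52.8% of these UMIs, and without it the levels were 3679 CPM (3427 to 3945) and 3092 CPM (2861 to 3336), both still above the unmarked cells. Col1a1 was at 5143 CPM in chondrocyte-marked and 3034 CPM in tenocyte-marked cells, and at 3427 CPM (3031 to 3860) and 2650 CPM (2201 to 3162) without the highest cell of each. Col3a1 went the other way, at 330 CPM against 2218 CPM (log2 -2.75, -3.11 to -2.40), as did Col4a1 (8.98 against 389 CPM), Col14a1 (8.98 against 467 CPM) and Col15a1 (6.74 against 137 CPM). One cell held 76.2% of the osteoblast-marked Col3a1 UMIs, and without it the level was 81.2 CPM (47.7 to 129). The cartilage collagens were also in these cells: Col2a1 was at 564 CPM and Col11a1 at 276 CPM, against 1.27 and 10.1 CPM in unmarked cells, and at 293 and 158 CPM in chondrocyte-marked cells; without the highest cell for each gene, they were at 363 and 128 CPM in osteoblast-marked cells, and Col2a1 was at 161 CPM (86.8 to 272) in chondrocyte-marked cells. Tenocyte-marked cells had the highest Col12a1, at 1290 CPM and 798 CPM without the highest cell. Their Col14a1 (974 CPM) came to 88.6% from 1 cell and was 131 CPM without it. Pericyte-marked cells, the smallest subset, had Col6a1 at 985 CPM, 523 CPM (261 to 937) without the highest cell, and Col3a1 at 1682 CPM, with Col1a1 at 103 CPM (17.1 to 329).

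**Figure D5:**
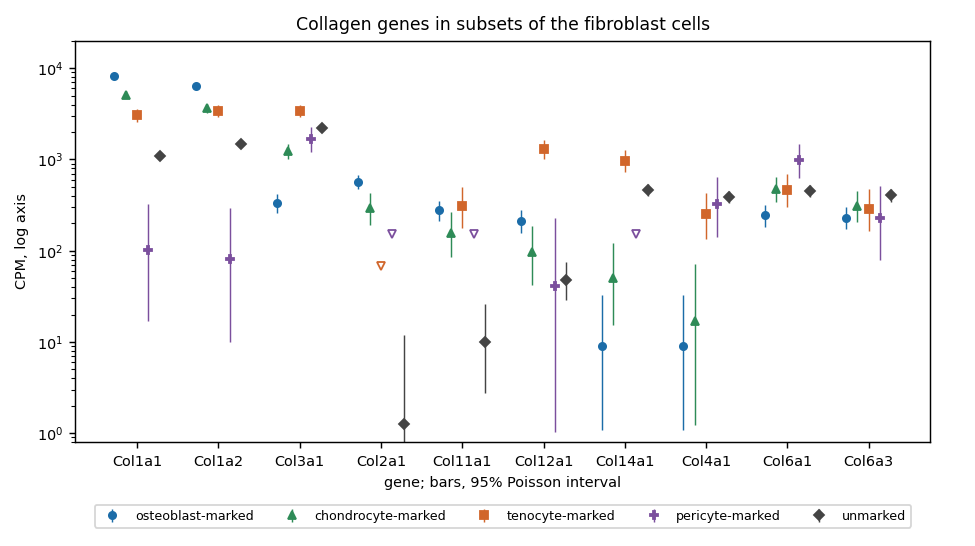
CPM (log axis) of 10 collagen genes in osteoblast-, chondrocyte-, tenocyte- and pericyte-marked and unmarked fibroblast cells, with 95% Poisson intervals; open triangles are upper limits where no UMI was found. Osteoblast-marked cells lie above unmarked cells for Col1a1 (8120 against 1103 CPM, 3679 CPM without 1 cell) and below them for Col3a1, Col14a1 and Col4a1; intervals cover counting error, not the spread between cells.

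In LEPR stromal cells, 22.1% of the 1877 cells held 50% of the Col1a2 UMIs and 9.48% those of Col1a1, larger shares than in fibroblast cells, while Col3a1 was about as concentrated (6.23%). LEPR stromal cells with UMIs of both Bmp4 and Chl1, markers of osteogenic-primed stroma (288 cells), were set against those with neither (881 cells). Of 18 collagen genes compared, 1 was called higher and 3 lower, where 1.27% and 1.56% of 10350 genes were called. Col8a1 was at 474 CPM (433 to 517) in cells with both and 194 CPM (175 to 213) in cells with neither, a log2 ratio of 1.29 in each lane. Col6a3 was at 9.06 against 80 CPM (log2 -3.14, -4.26 to -2.21), Col26a1 at 2.38 against 16.9 CPM and Col3a1 at 106 against 245 CPM. Col1a2 did not differ by 2-fold, at 1165 against 1135 CPM. Cells with both markers had more UMIs, with medians of 6979.5 and 4388. Within the largest cluster of LEPR stromal cells the values were similar, with log2 ratios of 1.42 for Col8a1, -3.14 for Col6a3 and -1.43 for Col3a1 between 242 and 398 cells.

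The LEPR stromal cells fell mainly into cluster 1 (1136 cells) and the unnamed, shallower cluster 3 (597 cells). Summed collagen was 4207 CPM in the former and 3086 CPM in the latter. Col4a1, at 512 and 296 CPM, Col4a2, at 273 and 131 CPM, and Col5a2, at 192 and 105 CPM, were lower in cluster 3, with log2 ratios of -0.79, -1.05 and -0.87. Col27a1 was higher there, at 144 against 82.7 CPM (log2 0.80, 0.53 to 1.07), and Col5a3 was at 121 CPM in both. Median UMIs were 6487.5 and 3513, and globin transcripts, which come from erythroid cells, made up 0.129% and 0.327% of UMIs; their part in these differences was not tested.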

How the data were processed

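Single-cell RNA sequencing was performed on Lin-CD45- bone and marrow cells of 3 pooled mice, in 2 lanes. The authors made 10x 3′ libraries, counted them with Cell Ranger on mm10 (submitters' processing notes, which also name R 4.0.3 and Seurat 4.0) and deposited the raw counts of UMIs for every gene in every called barcode. The version of Cell Ranger differs between sources, and counts were not normalized. UMIs at the 3′ end do not grow with transcript length.

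The lanes held 116827845 and 120556381 UMIs and the same cells, and UMIs were summed per barcode. A minimum of 200 genes and a maximum of 20% mitochondrial UMIs left 9573 barcodes and removed 1483. Clustering used Seurat 5.3.0, sctransform 0.4.2 and R 4.3.3 (3000 variable genes, 30 components, resolution 0.8). Sums and intervals used scipy 1.17.1 (Python 3.11.15), and Scrublet, run through scanpy 1.11.5, called 194 of 9514 cells doublets (2.04%) at an expected rate of 8%; these were kept in the main values. A cluster was named if at least 3 markers of a list were found, unless its 10 leading genes held more markers of another list, or held none of its own while its median UMIs were under 33.3% of that of all kept cells, which left 4 clusters unnamed. The design took endothelial cells from the main clustering, which gave none, so they were taken from the clustering of log-normalized counts, 61 cells outside the LEPR stromal gate. In all, 1090 kept cells were in none of the 4 groups, and 72 cells with Lepr lay near the Cxcl12 limit, between 4000 and 6000 CPM.

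CPM is UMIs per 1000000 UMIs of the group. Intervals (95%) are exact Poisson, Clopper-Pearson or conditional binomial, on the mean of the lanes, and a group at 0 takes a floor of 3 counts. With 1 pool, neither p-values nor standard errors were computed. The ratio functions were tested on simulated counts. The genes named are collagen genes at 50 CPM or more in LEPR stromal, fibroblast or endothelial cells, those under 3 UMIs, the receptors, and synthesis genes among the 3 largest changes each way or the 5 highest levels; further genes, among them Col4a4, Col7a1, Col17a1, Col24a1, Col26a1, Col28a1, Col6a6 and Col13a1, and the neighbours of Col5a1, were chosen after their values were seen. The collagen genes, lists and groups were chosen with earlier results of these data known. Coordinates are from GENCODE M21, which holds 32235 of the 32285 gene identifiers. Alternatives were other gates, filters, clusterings, thresholds, each lane alone, doublets removed and thinning.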

Additional observations from a re-analysis of the deposited data

Results flagged for a closer look

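The barcodes left out of every comparison also carried collagen UMIs. The 1483 barcodes left out, 1482 of them over the mitochondrial limit, had summed collagen of 182 CPM (166 to 199), against 354 CPM in all kept cells and above the limit that a count of 0 allows. A UMI was found for 31 of the 44 genes. Col1a2 was at 36.2 CPM, Col5a1 at 29.6 CPM and Col4a1 at 11.4 CPM in them, and Cxcl12 at 424 CPM.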

How the results depend on the processing

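With 1 pool and no test, the values that left their counting interval are given here. Summed collagen of LEPR stromal over erythroid cells (log2 5.64) was 5.43 and 5.69 with Cxcl12 limits of 2000 and 10000 CPM, 5.74 in the LEPR+ stromal cluster alone, 5.71 without Scrublet doublets, 5.51 with log-normalized clustering and 9.01 without Col5a1. Fibroblast over LEPR stromal (1.60) was 1.83 and 1.54 at those limits, 1.50 against the LEPR+ stromal cluster alone, 1.47 with collagen genes kept in the clustering, 1.50 as a mean of per-cell CPM 1.28 without osteoblast-marked cells and 1.29 without the fibroblast cell with the most collagen UMIs, and the collagen genes called fell from 20 to 13 at 4-fold. Endothelial over LEPR stromal (-1.10) was -0.88 with a limit of 2000 CPM and -1.64 with endothelial cells taken by at least 3 markers. The direction of these 3 sums held under each of these settings. The alternatives by 3 markers, without Col5a1, without osteoblast-marked cells and without that 1 cell were chosen after seeing the data, and clusters were kept fixed for the filter alternatives. The share of LEPR stromal cells with a collagen UMI (99.4%) was 99.7% and 95.5% when thinned to 2000 and 1000 UMIs. With Col15a1 and Col18a1 counted as other, basement membrane levels were 695, 347 and 1.27 CPM in LEPR stromal, fibroblast and erythroid cells, and other levels were 1320 and 373 CPM in fibroblast and endothelial cells. Each lane alone gave 5.64 to 5.66, 1.59 to 1.59 and -1.18 to -1.04 for the summed ratios, and 22 to 23, 19 to 19 and 14 to 15 genes called. No endothelial cluster was found at resolution 0.4 or with collagen genes kept, so those gave no value. No paired analysis was possible because both lanes hold 1 pool and no test was made. The 61 endothelial cells limit what can be seen there: a gene at 27.6 CPM or less can go unseen.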
